A study of Mus musculus with 6 samples.

Results

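Chemokine ligands and receptors of T cells were examined as a set of 9 genes, *Ccl3*, *Ccl4*, *Xcl1*, *Ccr6*, *Ccr8*, *Cxcr3*, *Cxcr4*, *Cxcr5* and *Cxcr6*. They were chosen by name, with earlier results of these data known. Each symbol was matched to its Ensembl identifier among the 47643 genes of the deposited count table. The set holds 3 ligands and 6 receptors. Of the 9 genes, 8 had reads, and 7 passed the filter of at least 10 reads over all samples that left 11877 genes for testing.

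The study asked how blockade of PD1 or of Lag3, a pair of co-inhibitory receptors, changes CD4+ T cells that respond again to antigen. All mice were Tg4 *Nr4a3*-Tocky Tiger mice, whose T cells carry a transgenic receptor for a myelin basic protein (MBP) peptide, a Timer protein that reports *Nr4a3* transcription, and an *Il10*-GFP reporter. Every mouse received 80 µg of the 4Y MBP peptide under the skin. After 24 h each was given 800 µg of antibody into the peritoneum, either an isotype control pool, anti-PD1 or anti-Lag3, and 30 min later a further 8 µg of peptide. CD4+ T cells positive for both the blue and the red form of the Timer were sorted from spleens 4 h after that, and RNA was read by 3′ mRNA sequencing in 2 samples per group. The age of the mice is not given in the sources used here, both sexes were used in the study, and every cell sequenced had been gated as a responder, so cells that did not respond are not represented.

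Chemokines are small secreted proteins that direct the migration of leukocytes through G-protein-coupled receptors, and a T cell changes its set of receptors when it is activated. CCR7 holds cells in the T cell zones of lymphoid organs, CXCR5 brings helper cells toward B cell follicles, CXCR3 and CXCR6 are receptors of effector cells, and CCR6 is best known on Th17 cells and on B cells. CCL3, CCL4 and XCL1 are ligands that activated T cells themselves secrete.

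*Ccr6* was the only member past the significance threshold in any comparison, and the sequences before its start sites are shown for that reason. The gene lies on the plus strand at chr17:8236043-8257141 (GRCm38). Its pair of RefSeq start sites (GRCm38.p6) have upstream windows of 250 bases at chr17:8235793-8236042 and chr17:8242276-8242525, both on the plus strand and outside annotated exons. Capitals mark the letters GGAAA, the core of NFAT sites (TTTCC on the other strand), and AGGTCA, the half-site of ROR-family receptors (TGACCT on the other strand).

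Ccr6 start site 1: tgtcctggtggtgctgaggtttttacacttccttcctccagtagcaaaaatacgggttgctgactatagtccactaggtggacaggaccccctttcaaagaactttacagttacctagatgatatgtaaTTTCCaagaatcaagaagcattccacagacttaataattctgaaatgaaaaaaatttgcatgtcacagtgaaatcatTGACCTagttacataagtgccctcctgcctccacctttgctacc
Ccr6 start site 2: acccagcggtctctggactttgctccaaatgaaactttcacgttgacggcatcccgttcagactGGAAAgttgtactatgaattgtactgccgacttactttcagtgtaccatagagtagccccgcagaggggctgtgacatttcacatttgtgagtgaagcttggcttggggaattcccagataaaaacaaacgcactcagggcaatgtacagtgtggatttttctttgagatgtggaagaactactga

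Start site 1 had 1 NFAT core, 121 bases before the start, and 1 ROR half-site, 44 bases before it. Start site 2 had 1 NFAT core, 186 bases before the start, and no ROR half-site. A search of both strands for TGANTCA, the AP-1 site, found none in either window, and the motifs searched did not overlap each other there. Among all 32817 RefSeq windows of the same length, 55.6% held an NFAT core, 14% a ROR half-site and 6.75% the AP-1 site. These matches describe the letters only. RefSeq windows were matched for 7 of the 9 members, *Ccl4* and *Cxcr5* being unmatched.

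Total counts ran from 2107715 to 2648920 per sample, and 3 reads in a sample correspond to between 1.11 and 1.44 CPM, the normalised read count, which was computed on library sizes scaled by the TMM method. Where a pair of values is given for a group, replicate 1 comes first. A single non-coding gene, *Gm42418*, took between 17.4% and 21% of the reads of each sample. *Nr4a3*, the gene behind the sort gate, had 109 and 112 reads under isotype, 62 and 72 under anti-PD1, and 97 and 99 under anti-Lag3. Its log2 fold change for anti-PD1 over isotype was -0.70 ± 0.23 (SE), which did not pass (edgeR adjusted p = 0.20). At the protein level the paper reports the other direction, with more of the blue Timer form in responding cells under anti-PD1 than under isotype. Neither *Pdcd1*, which encodes PD1 (12.6 to 14.9 mean CPM), nor *Lag3* (4.47 to 5.10 mean CPM) passed the edgeR test in any comparison, and both encode targets that the antibodies bind at the protein level. All 10 T cell markers were detected, *Cd4* among them, with the CD8 genes *Cd8a* at 5 to 17 reads and *Cd8b1* at 67 to 105 reads per sample.

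**Figure D1:**
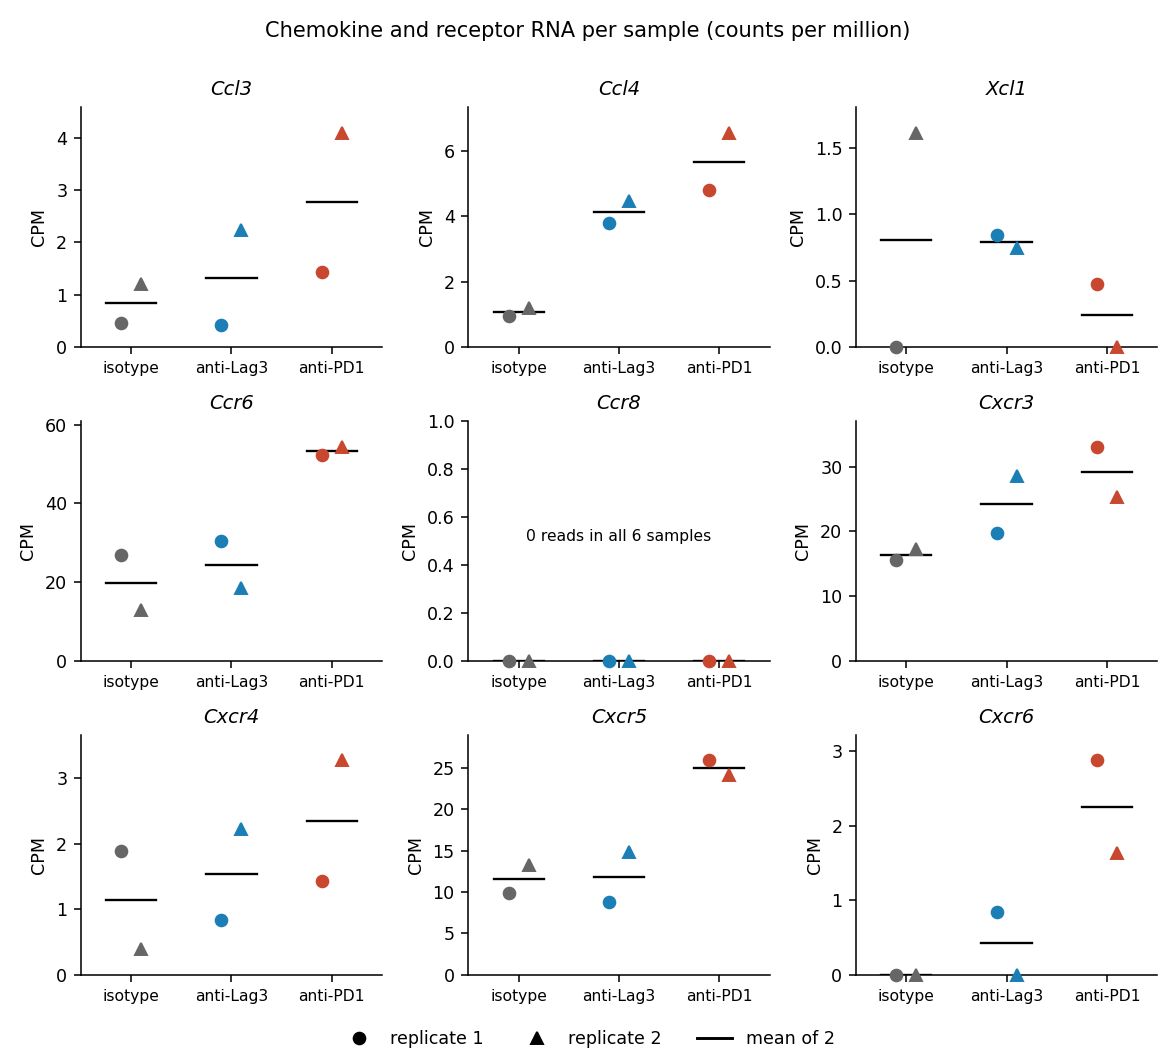
CPM of the 9 genes in each of the 6 samples, on an axis that starts at 0 in every panel. Circles are replicate 1, triangles replicate 2 and lines the mean of 2. *Ccr6* stood at 52.2 and 54.4 CPM in the anti-PD1 samples and at no more than 30.4 CPM in the others, and *Ccr8* had no reads.

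The ligand genes were read at low depth. *Ccl4* (chr11:83662584-83664683, plus strand), which encodes an inflammatory chemokine, had 2 and 3 reads under isotype, 9 and 12 under anti-Lag3, and 10 and 16 under anti-PD1. Both antibody groups lay above the isotype group without overlap. The mean level of *Ccl4* was 1.08 ± 0.19 CPM (SD, n = 2) with isotype, 4.13 ± 0.47 CPM with anti-Lag3, and 5.67 ± 1.24 CPM with anti-PD1.

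By edgeR's quasi-likelihood test the log2 fold change of *Ccl4* was 2.34 ± 0.86 (SE) for anti-PD1 over isotype, which did not pass the correction over all genes (adjusted p = 0.32). For anti-Lag3 over isotype it was 1.88 ± 0.88 (edgeR adjusted p = 0.80). From the reads alone, the ratio of anti-PD1 to isotype was 5.29, with a 95% exact interval from 2.00 to 17.6 that covers counting error only. The same ratio for anti-Lag3 was 3.82, with an interval from 1.40 to 13.0. Between the antibody groups the interval of the ratio ran from 0.748 to 2.59, so no difference in *Ccl4* was detectable at this depth.

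*Ccl3* (chr11:83647844-83649355, minus strand), whose product is a further inflammatory chemokine, lies near *Ccl4* with 13228 bases between the annotated genes. It had 1 and 3 reads under isotype, 1 and 6 under anti-Lag3, and 3 and 10 under anti-PD1. The 4 samples with 1 or 3 reads came from all of the groups, and in CPM the lower anti-PD1 sample (1.44) lay just above the higher isotype sample (1.21). The log2 fold change for anti-PD1 over isotype was 1.65 ± 1.26 (edgeR adjusted p = 0.85), and the ratio of reads was 3.30, with an interval from 1.02 to 13.9.

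*Xcl1* (chr1:164931644-164935527, minus strand), which encodes a ligand that attracts XCR1+ dendritic cells, had 9 reads in all. There were 0 and 4 under isotype, 2 and 2 under anti-Lag3, and 1 and 0 under anti-PD1. It fell short of the filter and was not tested. The ratio of reads for anti-PD1 over isotype was 0.254, with an interval from 0.00516 to 2.57.

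Among the receptors, *Ccr6*, which encodes the receptor of CCL20, had the clearest difference. It had 57 and 32 reads under isotype, 72 and 50 under anti-Lag3, and 109 and 133 under anti-PD1. In CPM these were 26.9 and 12.9, 30.4 and 18.6, and 52.2 and 54.4. Both anti-PD1 samples lay above all of the others, while the isotype and anti-Lag3 samples overlapped.

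The mean level of *Ccr6* was 53.3 ± 1.52 CPM (SD, n = 2) with anti-PD1, 24.5 ± 8.34 CPM with anti-Lag3, and 19.9 ± 9.89 CPM with isotype. The anti-PD1 samples differed from each other by less than the samples of either other group did. *Ccr6* rose 2.72-fold with anti-PD1 over isotype, a log2 fold change of 1.44 ± 0.28 (95% interval 0.87 to 2.02, edgeR adjusted p = 0.0021), and ranked 51 of 11877 genes by p-value. DESeq2 and limma-voom also called it (DESeq2 adjusted p = 0.032, limma-voom adjusted p = 0.0010). For anti-Lag3 over isotype the log2 fold change was 0.31 ± 0.30 with an interval from -0.30 to 0.92 that spans no change (edgeR adjusted p = 0.95).

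The difference between the antibodies was tested on its own. *Ccr6* was 2.19-fold higher with anti-PD1 than with anti-Lag3, a log2 difference of 1.13 ± 0.27 (95% interval 0.58 to 1.68), and just missed the threshold (edgeR adjusted p = 0.052). limma-voom placed it past the threshold (log2 difference 1.18, adjusted p = 0.018), and DESeq2 gave no adjusted p for it in this comparison.

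The *Ccr6* call depended on which samples were compared. Without isotype replicate 2, which had the fewest *Ccr6* reads, the log2 fold change over isotype was 0.99 (edgeR adjusted p = 0.24), and without anti-PD1 replicate 1 or 2 it was 1.47 and 1.41 (adjusted p = 0.057 and 0.13). Without isotype replicate 1 it was 2.05 (edgeR adjusted p = 0.00031). Against anti-Lag3 the difference was 1.52 without anti-Lag3 replicate 1 (edgeR adjusted p = 0.0076) and 0.80 without anti-Lag3 replicate 2 (adjusted p = 0.66).

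**Figure D2:**
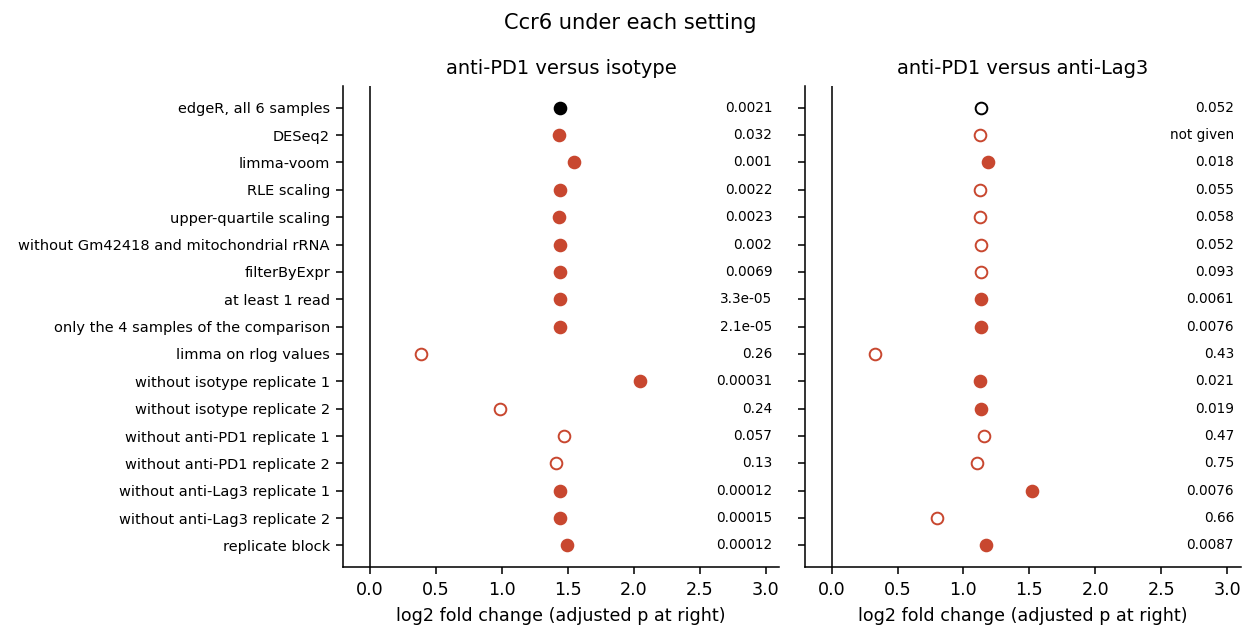
Log2 fold change of *Ccr6* for anti-PD1 over isotype and over anti-Lag3 (x axes) under each way of processing the data (y axis), with the adjusted p at the right of each panel. Filled points passed an adjusted p of 0.05. *Ccr6* was higher with anti-PD1 in every setting drawn, and passed against isotype in 12 of 16 alternatives and against anti-Lag3 in 7.

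The 3 genes whose profile over the 6 samples was closest to that of *Ccr6*, among 7919 genes with at least 100 reads in all, were *Rora*, *Arap2* and *Il1r1*. Likeness was the root mean square difference of log2 CPM after each gene's own mean was removed, and it came to 0.174, 0.180 and 0.193. *Rora*, which encodes the nuclear receptor ROR alpha, had 138 and 80.9 CPM with isotype, 142 and 124 CPM with anti-Lag3, and 301 and 267 CPM with anti-PD1. *Il1r1*, the signalling receptor of interleukin-1, had 17.9 and 8.45 CPM with isotype, 26.6 and 13.0 CPM with anti-Lag3, and 44.1 and 51.5 CPM with anti-PD1. *Arap2*, a GTPase-activating protein, had 224 and 156 CPM with isotype, 266 and 212 CPM with anti-Lag3, and 487 and 503 CPM with anti-PD1. In all 4 genes isotype replicate 2 was the lowest sample and the anti-PD1 samples were the highest. These genes were picked for their likeness, and no test was made of it.

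**Figure D3:**
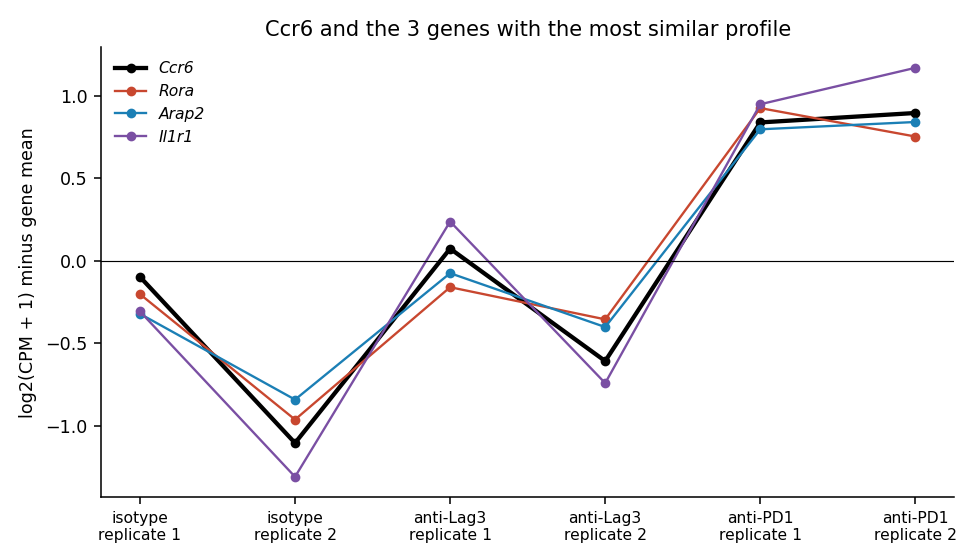
Level of *Ccr6* (black) and of its 3 closest genes in the 6 samples (x axis), as log2(CPM + 1) minus the gene's mean over samples (y axis). All 4 lines are lowest in isotype replicate 2 and highest in the anti-PD1 samples.

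*Cxcr5* (chr9:44511787-44561877, minus strand), which encodes the receptor of CXCL13, had 21 and 33 reads under isotype, 21 and 40 under anti-Lag3, and 54 and 59 under anti-PD1. The anti-PD1 samples again lay above the other 4, which overlapped. Mean levels were 25.0 ± 1.24 CPM with anti-PD1, 11.9 ± 4.24 CPM with anti-Lag3 and 11.6 ± 2.39 CPM with isotype.

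The log2 fold change of *Cxcr5* was 1.10 ± 0.35 for anti-PD1 over isotype (edgeR adjusted p = 0.17) and 1.06 ± 0.35 over anti-Lag3 (edgeR adjusted p = 0.34). Neither passed the correction. For anti-Lag3 over isotype it was 0.04 ± 0.37, with an interval from -0.72 to 0.79 (edgeR adjusted p = 0.99). *Bcl9l* overlaps *Cxcr5* on the other strand, and the strand setting of the counting is not given in the sources used here.

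*Cxcr3* (chrX:101731535-101734269, minus strand), the receptor of CXCL9 and CXCL10, had 33 and 43 reads under isotype, 47 and 77 under anti-Lag3, and 69 and 62 under anti-PD1. Here both antibody groups lay above the isotype samples and overlapped with each other. Mean levels were 16.4 ± 1.24 CPM with isotype, 24.2 ± 6.21 CPM with anti-Lag3 and 29.2 ± 5.45 CPM with anti-PD1. The log2 fold change was 0.82 ± 0.30 for anti-PD1 over isotype (edgeR adjusted p = 0.32) and 0.56 ± 0.30 for anti-Lag3 over isotype (edgeR adjusted p = 0.85). Between the antibodies it was 0.26 ± 0.29, with an interval from -0.32 to 0.84 (edgeR adjusted p = 0.96).

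*Cxcr6* (chr9:123806475-123811760, plus strand), the receptor of CXCL16, had no reads under isotype, 2 and 0 under anti-Lag3, and 6 and 4 under anti-PD1. It reached the filter through the anti-PD1 samples. Against a floor of 3 reads per isotype sample, *Cxcr6* was at least 1.72-fold higher with anti-PD1, and the test did not pass the correction (edgeR adjusted p = 0.47). The ratio of anti-PD1 to anti-Lag3 reads was 5.59, with an interval from 1.19 to 52.4 (edgeR adjusted p = 0.88). With anti-Lag3 it was under the floor in both samples. *Fyco1* overlaps *Cxcr6* on the other strand.

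*Cxcr4* (chr1:128588199-128592293, minus strand), the receptor of CXCL12, had 4 and 1 reads under isotype, 2 and 6 under anti-Lag3, and 3 and 8 under anti-PD1. All 3 groups overlapped. The log2 fold change for anti-PD1 over isotype was 1.07 ± 1.23 (edgeR adjusted p = 0.92). *Ccr8* (chr9:120092114-120094906, plus strand), the receptor of CCL1, had 0 reads in each sample, which allows a level of up to 1.11 to 1.44 CPM at this depth.

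**Figure D4:**
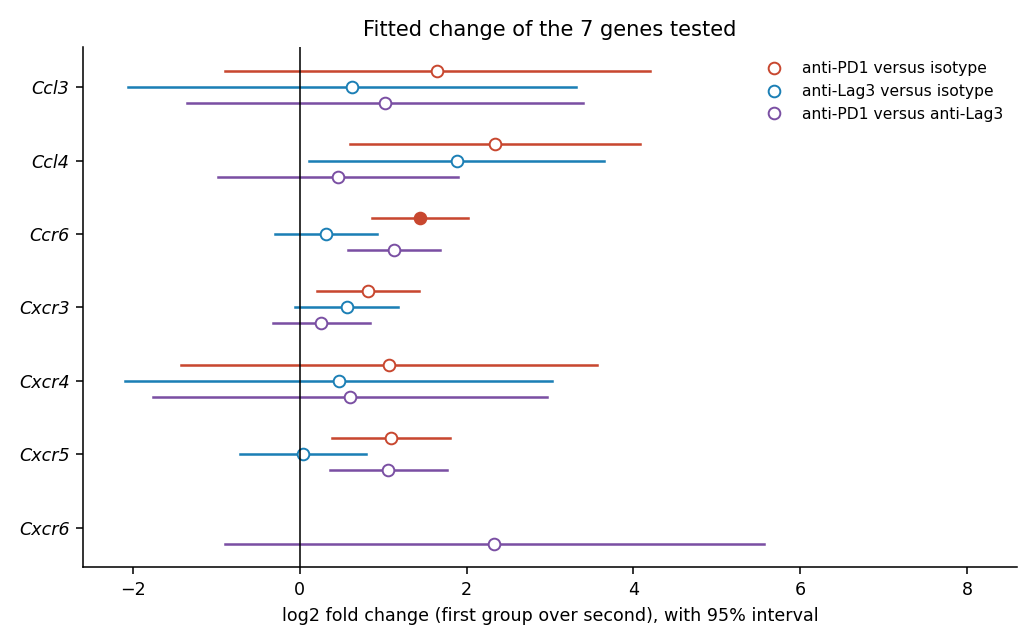
Log2 fold change of the 7 tested genes with 95% intervals (x axis) in the 3 comparisons. The filled point, *Ccr6* for anti-PD1 over isotype, is the one that passed an adjusted p of 0.05. *Cxcr6* is drawn only between the antibodies, since its isotype samples had no reads.

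Of the 9 members, 1 passed the adjusted threshold for anti-PD1 over isotype, where 0.901% of the 11877 genes tested passed (75 higher and 32 lower). At an unadjusted p under 0.05 it was 5 members, *Ccl4*, *Ccr6*, *Cxcr3*, *Cxcr5* and *Cxcr6*, all higher, where 8.12% of all genes passed in either direction. In 6 members both anti-PD1 samples exceeded both isotype samples, as in 19.2% of all genes. The median log2 fold change of the tested members was 1.10 with *Cxcr6* at its bound, and that of all genes was 0.0045. The counts, shares and medians given here and for the other comparisons are a description, since the set was chosen with earlier results known. *Cxcr6* passed the filter only through the anti-PD1 samples.

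For anti-Lag3 over isotype edgeR called 0 members, where 0.0421% of all genes passed, and DESeq2 and limma-voom called 0 as well. At an unadjusted p under 0.05 it was 1 member, *Ccl4*, where 5.96% of all genes passed. Both anti-Lag3 samples exceeded both isotype samples in 2 members, *Ccl4* and *Cxcr3*, and in 17.3% of all genes. The median of the tested members was 0.56 with *Cxcr6* at its fitted 3.11, and that of all genes 0.0007. *Cxcr6* had 2 reads with anti-Lag3 and 0 with isotype, under the floor in both groups, so its change is not known.

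Between anti-PD1 and anti-Lag3 edgeR called 0 members and limma-voom 1, *Ccr6*, where 0.303% of all genes passed by edgeR. At an unadjusted p under 0.05 it was 2 members, *Ccr6* and *Cxcr5*, where 6.53% of all genes passed. Both anti-PD1 samples exceeded both anti-Lag3 samples in 4 members, *Ccl4*, *Ccr6*, *Cxcr5* and *Cxcr6*, and in 18.2% of all genes. The median was 1.02 for the tested members and -0.0025 for all genes, which is a description, since the set was chosen with earlier results known. *Cxcr6*, which passed the filter only through the anti-PD1 samples, is counted here and enters the median at its fitted 2.33. The comparisons with isotype share the isotype samples and are not independent of each other.

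The rest of the chemokine system was read from lists of all mouse chemokines, their receptors and the signalling genes downstream, members included. Of 38 chemokine genes, 19 had reads, 8 were tested and 0 passed in any comparison by edgeR or limma-voom. DESeq2 called 0 as well, but it could not call genes for which it gave no adjusted p. These included *Ccl3*, *Ccl5* and *Cxcl11* for anti-PD1 over isotype, and *Ccl3* and *Ccl4* between the antibodies. At an unadjusted p under 0.05 edgeR gave 2 for anti-PD1 over isotype, the member *Ccl4* and *Cxcl11*, where 8.12% of all genes passed. *Cxcl11* reached the filter through the anti-PD1 samples, which held 12 of its 16 reads. For anti-Lag3 over isotype edgeR gave 1 (5.96% of all genes), and between the antibodies 1 (6.53%). The most read ligands outside the set were *Ccl25*, *Cxcl9*, *Cxcl10* and *Ccl6*. *Ccl6* had 7 and 2 reads with isotype, 8 and 9 with anti-Lag3, and 1 in each anti-PD1 sample, a log2 fold change for anti-PD1 over isotype of -2.06 ± 1.36 (edgeR adjusted p = 0.78). Of the ligands for the member receptors, *Cxcl9*, *Cxcl10* and *Cxcl11*, which bind CXCR3, had 125, 50 and 16 reads over all samples. The ligand genes *Ccl20* and *Cxcl12* had 0 reads, *Cxcl13* 1 read, and *Cxcl16* and *Ccl1* 3 reads each. The last 5 and *Cxcl11* were chosen for mention after their values were seen.

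Of 24 chemokine receptor genes, 17 had reads, 12 were tested, and *Ccr6* alone passed, with anti-PD1 over isotype. *Ccr7*, the receptor that keeps T cells in lymphoid tissue, had 266 and 400 reads with isotype, 352 and 362 with anti-Lag3, and 393 and 465 with anti-PD1. Its level in the anti-PD1 samples was 188 and 190 CPM, above the 125 and 161 CPM of the isotype samples. The log2 fold change was 0.40 ± 0.14 (edgeR adjusted p = 0.25), and over anti-Lag3 it was 0.42 ± 0.14 (edgeR adjusted p = 0.34). *Ccr2*, *Ccr4*, *Ccr3* and *Cx3cr1* had between 15 and 60 reads each over all samples, and none passed by edgeR. At an unadjusted p under 0.05 edgeR gave 5 of the 12 receptor genes for anti-PD1 over isotype, where 8.12% of all genes passed. These were *Ccr7* and the members *Ccr6*, *Cxcr3*, *Cxcr5* and *Cxcr6*, already counted above. *Cxcr6* passed the filter only through the anti-PD1 samples. The members and the list were chosen with earlier results known, so this count is a description. For anti-Lag3 over isotype edgeR gave 1 (5.96% of all genes), and between the antibodies 3 (6.53%).

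Of the signalling genes, 32 were in the table and 31 were tested, and 0 passed in any comparison by edgeR or limma-voom. DESeq2 called 0 as well, where a gene without a DESeq2 adjusted p, such as *Plcb3* for anti-PD1 over isotype, counted as not called. The signalling genes include G protein subunits, GRK kinases, arrestins, RGS proteins and the Rac activator *Dock2*. At an unadjusted p under 0.05 edgeR gave 1 for anti-PD1 over isotype, which was lower, where 8.12% of all genes passed. It gave 5 for anti-Lag3 over isotype, 3 higher and 2 lower (5.96% of all genes). Between the antibodies it gave 2, both lower with anti-PD1 (6.53%). The median log2 fold change of the 31 genes was 0.05 for anti-PD1 over isotype and 0.10 for anti-Lag3 over isotype.

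B cells also express *Ccr6* and *Cxcr5*, so B cell markers are given beside them. The summed level of 12 B cell markers was 147 to 169 CPM under isotype, 96.2 to 149 CPM under anti-Lag3, and 67.9 to 76.7 CPM in the anti-PD1 samples. Of the 12, 10 were tested, and *Ighm* and *Igkc* fell with anti-PD1 over isotype (edgeR log2 fold changes -0.89 and -2.51, adjusted p = 0.0084 and 0.0013). *Cd79a* had 0 reads in all samples. The sum was lowest in the anti-PD1 samples. Of the 10 markers tested, 8 had lower and 2 had higher estimates with anti-PD1 over isotype. The part of B cells in the levels of *Ccr6* and *Cxcr5* was not tested.

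The summed level of 13 myeloid markers was 88.6 to 96.6 CPM with isotype, 73.8 to 79.5 CPM with anti-Lag3 and 57.5 to 69.9 CPM with anti-PD1. Of 10 tested, *C1qa* alone passed for anti-PD1 over isotype, as a fall (edgeR log2 fold change -2.59, adjusted p = 0.027). In that comparison 7 of the 10 had lower and 3 had higher estimates, with 4 lower and 0 higher at an unadjusted p under 0.05 by edgeR. Of the 13 markers, 2 had no reads. The 10 CD8 T cell and NK cell markers summed to 64.4 to 76.8 CPM with isotype. Their sum was 43.1 to 48.1 CPM with anti-Lag3 and 47.4 to 56.0 CPM with anti-PD1. Of 7 tested, 0 passed in any comparison by edgeR or limma-voom, with 1 at an unadjusted p under 0.05 by edgeR in each. The 10 T cell markers summed to 2570 to 2911 CPM over all samples. Of these *Cd5*, a negative regulator of T cell receptor signalling, alone passed for anti-PD1 over isotype, as a rise (edgeR log2 fold change 1.01, adjusted p = 0.0015). In that comparison 4 T cell markers had higher and 6 had lower estimates, with 2 higher and 4 lower at an unadjusted p under 0.05 by edgeR. The 5 regulatory T cell markers summed to 704 to 746 CPM with isotype. Their sum was 699 to 855 CPM with anti-Lag3 and 780 to 849 CPM with anti-PD1. Of the 5, 0 passed in any comparison by edgeR or limma-voom. DESeq2 called 0 of these or of the CD8 T cell and NK cell markers, where a gene without a DESeq2 adjusted p counted as not called. At an unadjusted p under 0.05 edgeR gave 2 regulatory T cell markers for anti-PD1 over isotype, 1 for anti-Lag3 over isotype and 1 between the antibodies. Of all genes, 8.12%, 5.96% and 6.53% passed at that unadjusted p in the same order of comparisons. The part of these cell types in the levels of the members, *Ccr6* and *Cxcr5* among them, was not tested. In bulk samples fewer cells of a type and less RNA per cell cannot be told apart.

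**Figure D5:**
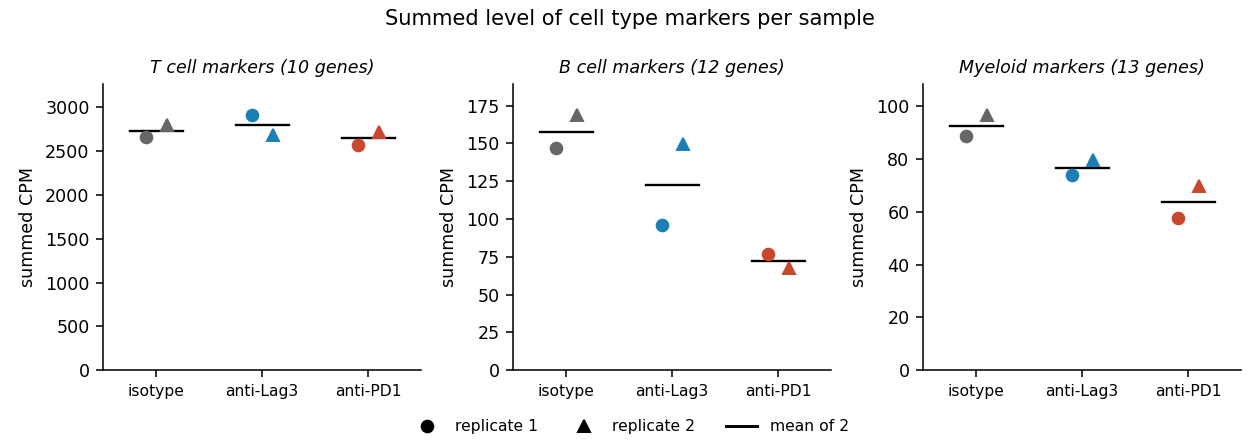
Summed CPM (y axes, from 0) of T cell, B cell and myeloid markers in each sample, with circles for replicate 1, triangles for replicate 2 and lines for the mean of 2. The B cell markers stood at 67.9 and 76.7 CPM in the anti-PD1 samples, under the isotype samples at 147 and 169 CPM.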

How the data were processed

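The authors made 3′ libraries (QuantSeq FWD) from sorted cells and sequenced them on a NextSeq. Per the study's methods, reads were trimmed with Bbduk, aligned with STAR 2.5.2a to GRCm38 and counted per gene with HTSeq-count, and 1 batch of samples was left out as an outlier by the authors. The deposited counts are raw whole numbers. The deposited rlog values, on a log2 scale, were made by the authors with DESeq2 and served only as an alternative.

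From the counts, edgeR 4.0.16 (R 4.3.3) fitted all 6 samples with TMM scaling (glmQLFit, glmQLFTest), after a filter of at least 10 reads over all samples, and p-values were adjusted by Benjamini-Hochberg over 11877 genes at a threshold of 0.05. All p-values are two-sided. CPM was not divided by length, since reads come from the 3′ end. Ratios of reads carry exact 95% binomial intervals, which cover counting error only and not the spread between replicates. Reads have no molecular identifiers here, so copies of 1 molecule are counted as separate reads and the intervals can be too narrow. The counts of replicates were too far apart for repeat reads of 1 library (chi-square per degree of freedom, 2.65 to 3.29). The study's methods describe replicates as separate mice whose cells were stained one by one before sorting.

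Names and positions of genes are those of GENCODE for GRCm38, with 47224 of the 47643 identifiers matched. Sequences come from RefSeq. The members and lists were chosen with earlier results of these data known. Genes named were the members, *Nr4a3*, *Pdcd1* and *Lag3*, list genes past the threshold, the 4 ligands and 6 receptors with the most reads outside the set, and the 3 closest profiles to each called member, with single markers where they bear on a result. Values for a few of these are not given here. Alternatives were DESeq2 1.42.0, limma-voom (limma 3.58.1), limma on rlog values, other scalings and filters, the 4 samples of a comparison alone, a threshold of 0.1, each replicate left out, and the replicate number as a block. The fits were tested on simulated data. Figures were drawn with matplotlib 3.10.9.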

Additional observations from a re-analysis of the deposited data

How the results depend on the processing

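Of 320 refits of the single members, 301 kept both direction and side of the threshold, 4 lost a call, 7 gained one and 8 reversed. The losses were all of *Ccr6* for anti-PD1 over isotype. With limma on rlog values it was 0.39 (adjusted p = 0.26), and without a replicate it ranged from 0.99 to 2.05, with the call lost without isotype replicate 2 or either anti-PD1 replicate. The gains were all of *Ccr6* for anti-PD1 over anti-Lag3, with limma-voom, with genes of at least 1 read, with the 4 samples alone, with the replicate block, and without isotype replicate 1, isotype replicate 2 or anti-Lag3 replicate 1 (edgeR adjusted p from 0.0061 to 0.021, limma-voom 0.018). The reversals were among changes not called. Without isotype replicate 1, *Cxcr5* was -0.14 for anti-Lag3 over isotype, and without isotype replicate 2, *Ccr6* was -0.15 and *Cxcr4* -0.27. Without anti-Lag3 replicate 1, *Ccr6* was -0.08, and without anti-Lag3 replicate 2, *Ccl3* was -0.93, *Cxcr4* -0.37 and *Cxcr5* -0.39 in that comparison. Without anti-PD1 replicate 2, *Cxcr4* was -0.11 for anti-PD1 over anti-Lag3. Over all the leave-outs these values ran from -0.93 to 1.42 for *Ccl3*, -0.15 to 0.92 for *Ccr6*, -0.37 to 1.83 for *Cxcr4* and -0.39 to 0.35 for *Cxcr5* for anti-Lag3 over isotype, and from -0.11 to 1.43 for *Cxcr4* between the antibodies. Where a group is left with 1 sample, that sample is assumed to vary like the others.

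The number of members called was 1 for anti-PD1 over isotype, 0 with limma on rlog values (4 at an unadjusted p under 0.05) and 0 to 1 without a replicate. For anti-PD1 over anti-Lag3 it was 0 by edgeR, and 1 with limma-voom, with genes of at least 1 read, with the 4 samples alone, at a threshold of 0.1 and with the replicate block, and 0 to 1 without a replicate. The number of genes called for anti-PD1 over isotype, 107, became 175 with the 4 samples alone, 166 at a threshold of 0.1 and 0 with limma on rlog values (1021 at an unadjusted p under 0.05), and 46 to 161 without a replicate. For anti-Lag3 over isotype, 5 became 1 with DESeq2, 3 without *Gm42418* and mitochondrial rRNA, 20 with genes of at least 1 read, 0 with filterByExpr (592 at an unadjusted p under 0.05), 0 with the 4 samples alone (653) and 0 with limma on rlog values (822), and 0 to 16 without a replicate. For anti-PD1 over anti-Lag3, 36 became 16 with DESeq2, 58 with genes of at least 1 read and 0 with limma on rlog values (925 at an unadjusted p under 0.05), and 3 to 49 without a replicate. Causes were not tested.

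The replicate numbers come from the sample titles. Deviations from the group means over 3058 genes correlated at 0.07 and 0.07 between isotype and each antibody group and at -0.10 between the antibody groups, so the samples share a number only. With the number as a block, edgeR called 144, 6 and 46 genes in the 3 comparisons, and *Ccr6* had log2 fold changes of 1.49 over isotype (adjusted p = 0.00012) and 1.17 over anti-Lag3 (adjusted p = 0.0087). Depth limits *Ccl3*, *Ccl4*, *Xcl1*, *Cxcr4* and *Cxcr6*, with at most 16 reads in a sample, and *Ccr8*, with none.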

Other observations

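A pair of ligand genes outside the set, and a regulatory T cell gene, were higher in replicate 2 than in replicate 1 of each group. They were picked after their values were seen. *Cxcl9*, a ligand of CXCR3 induced by interferon gamma, had 9, 10 and 10 reads in the replicate 1 samples of the isotype, anti-PD1 and anti-Lag3 groups and 25, 27 and 44 in the replicate 2 samples. *Cxcl10*, a further ligand of CXCR3, had 3, 5 and 3 reads against 13, 11 and 15. *Foxp3*, the defining gene of regulatory T cells, had 5, 7 and 12 reads against 40, 15 and 33. *Cxcr3* itself did not share the order, with 33, 69 and 47 reads in the replicate 1 samples and 43, 62 and 77 in the replicate 2 samples. The study's methods describe samples sorted and processed in batches, and the labels do not tie the replicate numbers to them.

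*Cxcl11*, the other interferon-induced ligand of CXCR3, had 0 and 1 reads under isotype, 2 and 1 under anti-Lag3, and 5 and 7 under anti-PD1. It did not pass the correction (edgeR adjusted p = 0.61 for anti-PD1 over isotype). *Cx3cr1* had 0 reads in each isotype sample, 9 and 1 under anti-Lag3, and 5 and 0 under anti-PD1, and a single sample of each antibody group held most of the reads.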
